A study of Mus musculus with 4 samples.

Results

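The genes described are 34 mouse genes of shelterin, telomerase and the telomeric RNA TERRA, chosen by symbol and not by any measured value, out of 21971 genes in the count table. All 34 had a row and all 34 passed the filter on low counts. They lie on 15 chromosomes. They were measured by RNA-seq of total RNA depleted of ribosomal RNA in NMuMG cells, an epithelial line from the normal mouse mammary gland that turns from an epithelial to a mesenchymal state under TGFβ. There were 4 groups: cells with Vp16-TRF1ΔN after 24 h of TGFβ at 5 ng/ml, the same cells at 0 h, cells with TRF1ΔN after 24 h of TGFβ, and those cells at 0 h. Per the labels, TRF1ΔN is a mutated human TRF1 protein, stably overexpressed, and Vp16-TRF1ΔN is that protein fused to the Vp16 transcription activation domain. No line labelled as free of mutated TRF1 was analysed here. Per the series description, the fusion was used to raise TERRA-like RNA, and the study asked whether this changes the response to TGFβ. Each group held 1 library, so within a line and within a time there is no replicate, and no label says whether the lines are clones. No library was labelled as 24 h without TGFβ, so TGFβ and the time in culture cannot be told apart.

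Telomeres are arrays of the repeat TTAGGG at chromosome ends. Shelterin covers them: TRF1 and TRF2 bind the double-stranded repeat, POT1 binds the single-stranded end, and TIN2, TPP1 and RAP1 join the complex. Telomerase, a reverse transcriptase with an RNA template and a set of RNA-binding proteins, adds repeats, and the CST complex brings in DNA polymerase α-primase to fill in the opposite strand. TERRA is transcribed from the subtelomere into the repeat and can pair with telomeric DNA as an R-loop, and nonsense-mediated decay factors and hnRNP proteins are known to act on it in human cells. The rows analysed are genes and 4 construct rows, so TERRA and the repeats themselves were not measured here.

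The libraries held 35423556 counts (Vp16-TRF1ΔN, 24 h), 41958849 counts (Vp16-TRF1ΔN, 0 h), 43379387 counts (TRF1ΔN, 24 h) and 46001039 counts (TRF1ΔN, 0 h). The construct row named VP16 had 27 and 15 counts in the Vp16-TRF1ΔN libraries at 24 h and 0 h, against 1 and 0 counts in the TRF1ΔN libraries. The row named TRF1DN had 159 and 123 counts in the Vp16-TRF1ΔN line at 24 h and 0 h, against 7798 and 1863 counts in the TRF1ΔN line. The row named Vec_part1 had 33 and 32 counts in the Vp16-TRF1ΔN line, against 1132 and 422 counts in the TRF1ΔN line. The row named Vec_part2 had 4352 and 5549 counts, against 16312 and 14844 counts, so not every construct row was near 0 in the Vp16-TRF1ΔN line. The VP16 and TRF1DN rows had low counts there, so these rows do not show the overexpression of the fusion that its label gives. How well any construct row measures the fusion was not tested. Each direction between the lines is therefore one between libraries labelled Vp16-TRF1ΔN and TRF1ΔN. Mitochondrially encoded genes took 15.7% and 13.3% of the counts in the Vp16-TRF1ΔN and TRF1ΔN libraries at 24 h, against 11.4% and 10.2% at 0 h. The TGFβ response was present: Fn1, Snai1, Zeb1 and Cdh2 rose and Cdh1 fell, by 3.50, 3.67, 1.95, 1.31 and -1.46 on the log2 scale (edgeR, with adjusted p between 0.000858 and 0.00407). Epithelial markers (6 of 7 had a row) summed to 6536 and 6494 CPM at 24 h and 6541 and 6835 CPM at 0 h in the Vp16-TRF1ΔN and TRF1ΔN lines, but they changed in both directions. Krt8 (0.30) and Krt18 (0.56) rose, and Krt19 (-3.42), Cdh1 (-1.46), Ocln (-0.93) and Tjp1 (-0.47) fell on the log2 scale. Fibroblast markers (4 of 6) summed to 12.0 and 21.6 CPM at 24 h, against 1.90 and 1.36 CPM at 0 h, with Col1a1 and Pdgfra higher by call and Dcn at 0 counts in both 24 h libraries. Immune markers (4 of 6) summed to 3.85 and 5.44 CPM at 24 h, against 3.46 and 3.51 CPM at 0 h. Among them Csf1r was called higher, with 21 and 101 counts at 24 h and 2 and 1 counts at 0 h. Cd68 was not called, with 110 and 123 counts at 24 h and 133 and 150 counts at 0 h. The pan-leukocyte gene Ptprc had 1 count in each 24 h library, against 6 and 7 counts at 0 h. Itgam had 0 and 4 counts at 24 h, against 8 and 9 counts at 0 h. Endothelial markers (3 of 5) summed to 0.759 and 1.31 CPM at 24 h, against 0.186 and 0.147 CPM at 0 h, with Cdh5 called higher at 24 and 50 counts, against 5 and 4 counts at 0 h. No adipocyte marker exceeded 2 counts. The part of other cell types in the results was not tested. In bulk RNA, fewer cells of a kind and less RNA per cell cannot be told apart.

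The telomere genes covered a wide range of levels, compared here as CPM (counts scaled by library size) per kilobase of annotated exon, as means of the 4 libraries. Nop10 and Nhp2, small proteins of the H/ACA ribonucleoprotein core of telomerase, had the highest levels at 82.5 and 79.2 CPM per kb. Tnks2, which encodes the second tankyrase, followed at 79.0 CPM per kb. The ranges of these 3 genes over the libraries overlapped (73.8 to 94.6, 56.1 to 101 and 72.2 to 85.7 CPM per kb), so their order is not separated. Dkc1 (22.6 CPM per kb) and Rif1 (21.3 CPM per kb) came next, and their ranges overlapped as well. Within shelterin the order was Acd at 8.04, Terf2ip at 6.10, Terf2 at 4.95, Tinf2 at 4.03, Terf1 at 3.64, Pot1a at 3.50 and Pot1b at 2.44 CPM per kb. Acd lay above the other shelterin genes in each library, whereas Tinf2, Terf1 and Pot1a overlapped. Tert, the catalytic subunit of telomerase, was lowest of the 34 at 0.285 CPM per kb, at percentile 1.89 of the genes that average 1 CPM or more. It had 43, 81, 64 and 89 counts in the Vp16-TRF1ΔN libraries at 24 h and 0 h and the TRF1ΔN libraries at 24 h and 0 h.

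**Figure D1:**
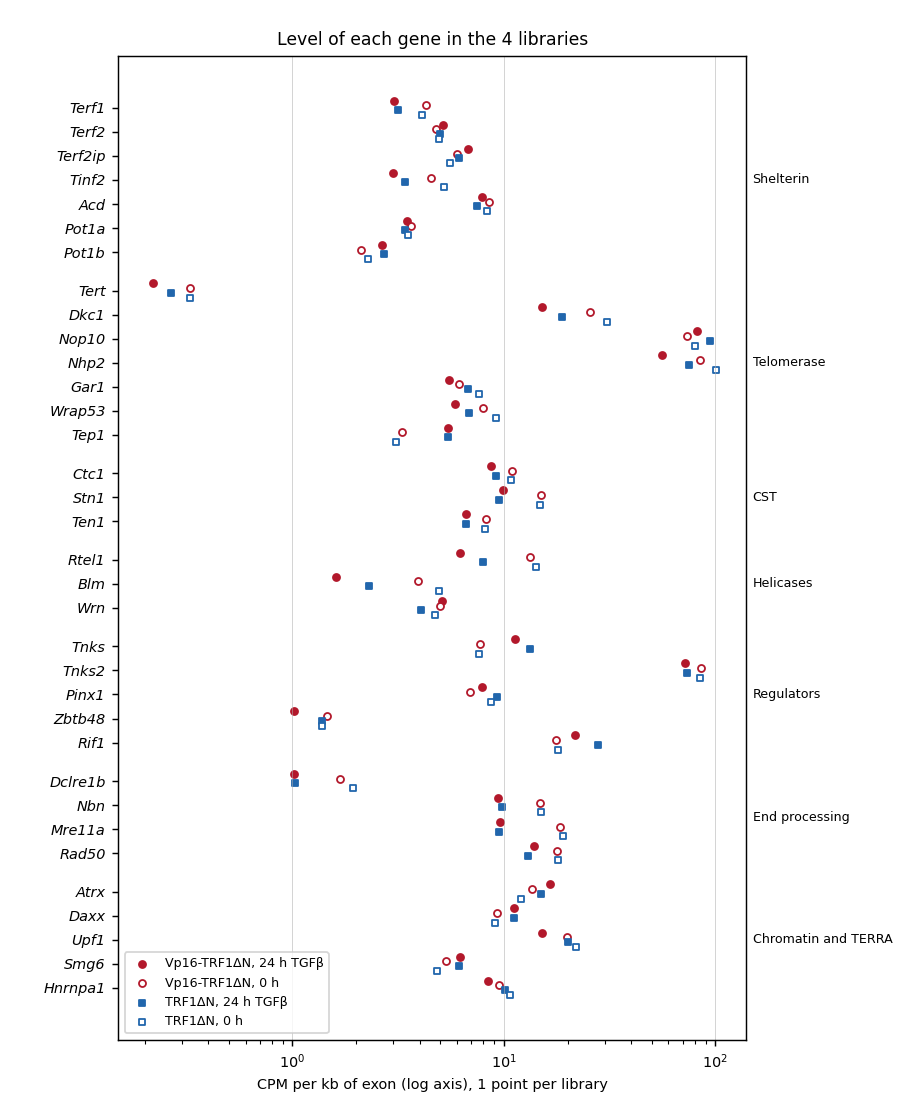
Level of each of the 34 genes in CPM per kb of exon on a log axis, with 1 point per library and genes grouped by role. Nop10, Nhp2 and Tnks2 sit near the top of the range and Tert at the bottom, between 0.219 and 0.328 CPM per kb. For Blm, Rtel1 and Mre11a the 24 h points (filled) lie to the left of the 0 h points (open) in both lines.

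After 24 h of TGFβ, 4 of 4 end-processing genes, 3 of 3 CST genes and 2 of 3 helicase genes fell, 5 of 7 shelterin genes did not pass the test, and the genes that rose were Tep1, Tnks, Rif1, Atrx, Daxx and Smg6. In an additive fit over the 4 libraries, with line and TGFβ as its terms, 21 of the 34 genes were called by edgeR's quasi-likelihood test at an adjusted p under 0.05. Of all 14305 genes tested, 48.5% were called, 25.4% lower and 23.1% higher. Among the telomere genes 15 (44.1%) fell, 6 (17.6%) rose and 13 were not called. The log2 changes of those that fell ran between -1.19 and -0.23 (adjusted p 0.00142 to 0.0427) and of those that rose between 0.28 and 0.77 (adjusted p 0.00299 to 0.0367). The median log2 change was -0.24 over the 34 genes and -0.01 over all genes tested. The median size of change, sign aside, was 0.30 on the log2 scale, against 0.40 over all genes, and Blm alone was changed by at least 2-fold on average. Of the tested genes 19.0% were called with a change of that size. DESeq2's Wald test called 31.5% of its 15581 genes, 2626 lower and 2284 higher. With it, 10 of the 15 falls and 3 of the 6 rises were called.

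**Figure D2:**
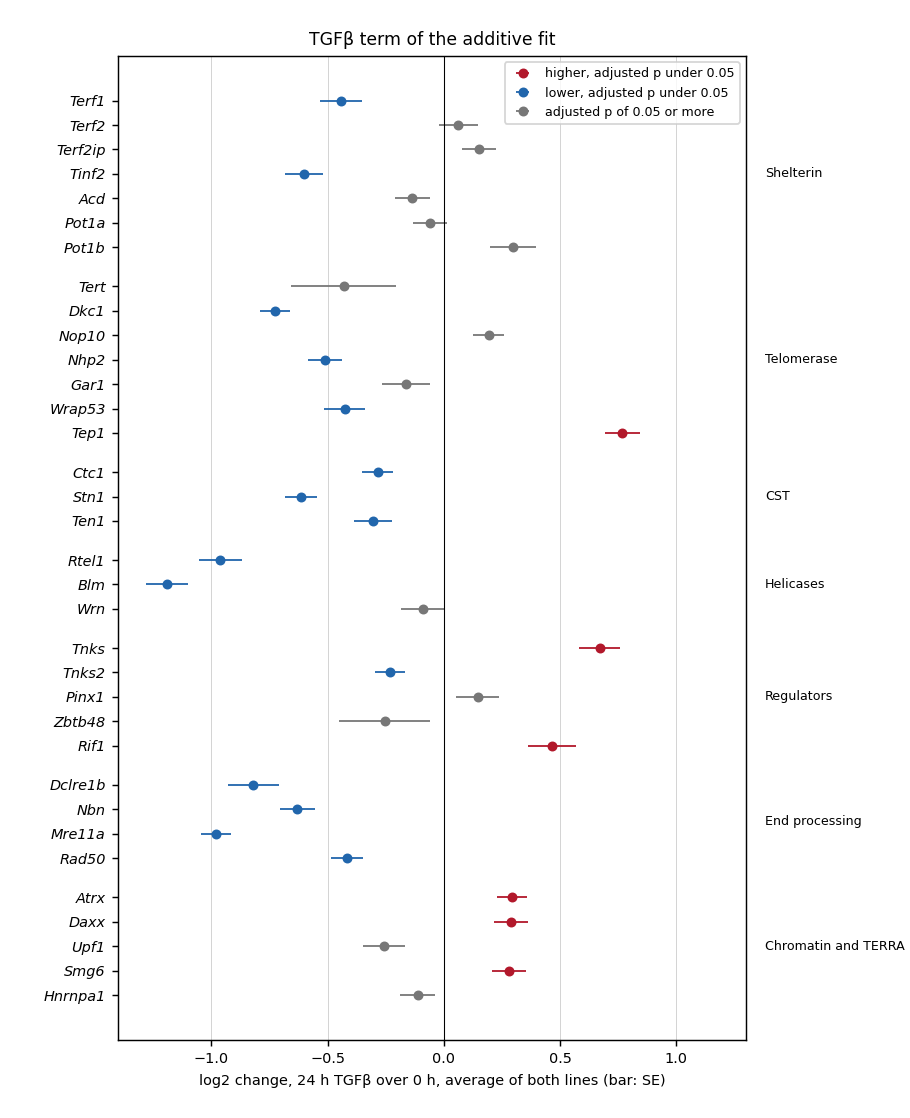
Log2 change at 24 h of TGFβ over 0 h, averaged over both lines, for each gene, with the SE of the additive fit as the bar. Blue genes were called lower, red genes higher and grey genes were not called. All 4 end-processing genes and all 3 CST genes are blue, and 5 of 7 shelterin genes are grey.

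Of the 7 shelterin genes, 2 fell (28.6%, near the 25.4% of all genes tested) and 5 were not called, with a median log2 change of -0.06. Tinf2, which encodes TIN2, the protein that holds TRF1, TRF2 and TPP1 together, had 14.8 and 16.8 CPM at 24 h in the Vp16-TRF1ΔN and TRF1ΔN lines, against 22.3 and 25.7 CPM at 0 h. Both 24 h libraries lay below both 0 h libraries, and the change was -0.60 ± 0.08 (log2 ± SE, adjusted p = 0.00616, edgeR quasi-likelihood test). Tinf2 shares 31.2% of its exon bases with Gmpr2 on the opposite strand, whose log2 change was -0.10 ± 0.08. Of its 50-base words 26.5% also occur in other genes. The words were matched on either strand, so this share can include the overlap with Gmpr2. The strand setting of the counting is not given in the sources used here, so the part of the Gmpr2 reads in the Tinf2 row was not tested. Terf1, the mouse gene for endogenous TRF1, had 478 and 610 counts at 24 h in the Vp16-TRF1ΔN and TRF1ΔN lines, against 851 and 903 counts at 0 h. In CPM this was 13.9 and 14.5 at 24 h and 19.7 and 19.0 at 0 h, without overlap. The change was -0.44 ± 0.09 (adjusted p = 0.0180, edgeR), and over the alternatives the adjusted p ran from 0.00696 to 0.0877, the highest in DESeq2. Whether reads of the human TRF1 construct were counted in the mouse Terf1 row was not tested.

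The other 5 shelterin genes were not called. Terf2, which encodes TRF2, the protein that shapes the protective telomere loop, changed by 0.06 ± 0.08, and its partner Terf2ip (RAP1) by 0.15 ± 0.07 (adjusted p = 0.565 and 0.159). Acd, which encodes TPP1, the subunit that recruits telomerase, had -0.14 ± 0.08 (adjusted p = 0.202). Of its exon bases 33.3% overlap Carmil2 on the opposite strand, a gene with 22 to 34 counts per library. Mice have a pair of POT1 genes: Pot1a restrains the damage response at the single-stranded end and Pot1b limits the trimming of the strand opposite it. Pot1a had -0.06 ± 0.07 (adjusted p = 0.533) and Pot1b 0.30 ± 0.10 (adjusted p = 0.0645), so neither was called. The ratio of 24 h to 0 h of Pot1b was 1.26 (95% counting interval 1.11 to 1.44) in Vp16-TRF1ΔN and 1.20 (1.07 to 1.34) in TRF1ΔN, a change as large as that of Atrx or Daxx, which were called. Per kilobase, the ratio of Pot1b to Pot1a was 0.765 and 0.803 at 24 h in the Vp16-TRF1ΔN and TRF1ΔN lines, against 0.580 and 0.644 at 0 h, a description of 4 libraries without a test.

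Of the 7 telomerase genes, Dkc1, Nhp2 and Wrap53 fell (42.9%, against 25.4% of all genes tested). Tep1 rose (14.3%, against 23.1%) and Tert, Nop10 and Gar1 were not called. Dkc1 encodes dyskerin, the pseudouridine synthase that binds the telomerase RNA, and had 62.4 and 77.9 CPM at 24 h in the Vp16-TRF1ΔN and TRF1ΔN lines, against 106 and 126 CPM at 0 h. Its change was -0.73 ± 0.06 (adjusted p = 0.00248, edgeR quasi-likelihood test). Nhp2 had 64.3 and 86.0 CPM at 24 h, against 97.0 and 116 CPM at 0 h, a change of -0.51 ± 0.07 (adjusted p = 0.00699). Both genes were lower at 24 h in each line, whereas Nop10 of the same protein core had 90.5 and 105 CPM at 24 h, against 81.8 and 88.8 CPM at 0 h (0.19 ± 0.07, adjusted p = 0.0723). Gar1, the fourth core protein, had -0.16 ± 0.10 (adjusted p = 0.249). Wrap53, which encodes TCAB1, the protein that carries telomerase to Cajal bodies, had 12.2 and 14.1 CPM at 24 h and 16.4 and 19.0 CPM at 0 h. Its change of -0.43 ± 0.09 (adjusted p = 0.0191 in edgeR) had an adjusted p of 0.00890 to 0.113 over the alternatives, the highest in DESeq2. Tep1, a telomerase-associated protein that is also part of vault particles, had 51.8 and 52.3 CPM at 24 h, against 31.6 and 29.6 CPM at 0 h. It was the largest rise of the 34, at 0.77 ± 0.07 (adjusted p = 0.00299), and the libraries of the lines lay close together at each time. Tert had 1.25 and 1.52 CPM at 24 h in the Vp16-TRF1ΔN and TRF1ΔN lines, against 1.88 and 1.87 CPM at 0 h. The change of -0.43 ± 0.22 was not called (adjusted p = 0.179), and within the lines the 24 h to 0 h ratios were 0.668 (95% counting interval 0.450 to 0.978) in Vp16-TRF1ΔN and 0.814 (0.581 to 1.13) in TRF1ΔN.

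All 3 genes of the CST complex fell, against 25.4% of all genes tested. Stn1 had 40.2 and 38.4 CPM at 24 h in the Vp16-TRF1ΔN and TRF1ΔN lines, against 60.5 and 59.7 CPM at 0 h, a change of -0.61 ± 0.07 (adjusted p = 0.00385, edgeR). Ctc1, the large scaffold subunit, had 58.9 and 62.3 CPM at 24 h, against 74.0 and 73.6 CPM at 0 h (-0.29 ± 0.07, adjusted p = 0.0267). Ten1 had 18.03 CPM in each line at 24 h and 22.4 and 22.2 CPM at 0 h (-0.30 ± 0.08, adjusted p = 0.0375). The lines were within 1 CPM of each other for Ten1, and the groups at 24 h and 0 h did not overlap for any of the 3. Over the alternatives the adjusted p of Ctc1 ran from 0.0182 to 0.114 and that of Ten1 from 0.0299 to 0.243, with the highest in DESeq2, which called Stn1 but neither of these.

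The helicase genes Blm and Rtel1 had the first and the third largest falls, and Wrn had no call. Blm, the RecQ helicase that dissolves recombination intermediates, had 14.1 and 20.2 CPM at 24 h in the Vp16-TRF1ΔN and TRF1ΔN lines, against 34.6 and 43.2 CPM at 0 h. The change was -1.19 ± 0.09 (adjusted p = 0.00185, edgeR quasi-likelihood test), and the 24 h to 0 h ratio was 0.407 (95% counting interval 0.367 to 0.452) in Vp16-TRF1ΔN and 0.468 (0.432 to 0.507) in TRF1ΔN. Rtel1, which unwinds the telomere loop and G-quadruplexes, had 40.9 and 52.8 CPM at 24 h, against 87.6 and 93.4 CPM at 0 h, a change of -0.96 ± 0.09 (adjusted p = 0.00294). In both genes the 24 h libraries lay far below the 0 h libraries, and the lowest library was Vp16-TRF1ΔN at 24 h. Wrn, another RecQ helicase, had 38.8 and 30.9 CPM at 24 h in the Vp16-TRF1ΔN and TRF1ΔN lines, against 38.0 and 35.7 CPM at 0 h (-0.09 ± 0.09, adjusted p = 0.450). The Wrn libraries at 24 h and 0 h overlapped, unlike those of Blm, whose 4 values separated by time.

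The 4 genes of end processing and break sensing all fell, against 25.4% of all genes tested, with a median log2 change of -0.73. Mre11a, Rad50 and Nbn encode the MRN complex, which senses double-strand breaks and resects ends. Mre11a had 56.7 and 56.0 CPM at 24 h in the Vp16-TRF1ΔN and TRF1ΔN lines, against 109 and 113 CPM at 0 h. Its change of -0.98 ± 0.06 had the smallest adjusted p of the 34 (0.00142, edgeR quasi-likelihood test), and the lines lay within 5 CPM of each other at each time. Nbn had 23.8 and 24.9 CPM at 24 h, against 37.4 and 37.9 CPM at 0 h (-0.63 ± 0.07, adjusted p = 0.00449). Rad50 had 74.6 and 70.0 CPM at 24 h, against 95.5 and 97.3 CPM at 0 h (-0.42 ± 0.07, adjusted p = 0.0102). The size of the fall thus differed between subunits of 1 complex, although the difference between subunits was not tested. Dclre1b, which encodes Apollo, the nuclease that TRF2 recruits to generate the overhang at the leading end, had 8.52 and 8.65 CPM at 24 h, against 14.1 and 16.2 CPM at 0 h. Its log2 change was -0.82 ± 0.11 (adjusted p = 0.00585). Gm15471 overlaps 14.7% of its exon bases on the opposite strand and had 1 count or none in each library.

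Among the regulators of telomerase and of telomere length, Tnks and Rif1 rose, Tnks2 fell and Pinx1 and Zbtb48 were not called. The tankyrases add poly(ADP-ribose) to TRF1, which takes human TRF1 off the telomere. Tnks had 167 and 198 CPM at 24 h in the Vp16-TRF1ΔN and TRF1ΔN lines, against 115 and 114 CPM at 0 h (0.67 ± 0.09, adjusted p = 0.00564, edgeR quasi-likelihood test). Tnks2 had 751 and 760 CPM at 24 h, against 892 and 883 CPM at 0 h (-0.23 ± 0.06, adjusted p = 0.0427, with 0.0186 to 0.108 over the alternatives). The paralogous genes were thus called in opposite directions, with Tnks2 lost in DESeq2. Rif1, which acts on replication timing and on the choice of break repair, had 227 and 294 CPM at 24 h, against 186 and 189 CPM at 0 h (0.46 ± 0.10, adjusted p = 0.0238). Pinx1, a telomerase inhibitor in human cells, changed by 0.14 ± 0.09 (adjusted p = 0.253). Zbtb48, which encodes TZAP, a protein that binds long telomeres in human cells, had 3.24 and 4.39 CPM at 24 h, against 4.64 and 4.43 CPM at 0 h (-0.25 ± 0.20, adjusted p = 0.338), so only the Vp16-TRF1ΔN library at 24 h stood below the rest.

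Of the 5 genes of telomeric chromatin and TERRA, 3 rose by a small amount (60.0%, against 23.1% of all genes tested) and none fell. Atrx and Daxx, the remodeller and the chaperone that place histone H3.3 at telomeres, changed by 0.29 ± 0.06 and 0.29 ± 0.07 (adjusted p = 0.0212 and 0.0326, edgeR quasi-likelihood test). Atrx had 358 and 327 CPM at 24 h in the Vp16-TRF1ΔN and TRF1ΔN lines, against 296 and 263 CPM at 0 h, and Daxx had 35.2 CPM in each line at 24 h, against 29.1 and 28.6 CPM at 0 h. Smg6, a nuclease of nonsense-mediated decay, had 52.3 and 52.0 CPM at 24 h and 45.0 and 40.9 CPM at 0 h (0.28 ± 0.07, adjusted p = 0.0367). All 3 calls were lost in DESeq2: over the alternatives the adjusted p was 0.00892 to 0.0504 for Atrx, 0.0300 to 0.213 for Daxx and 0.0289 to 0.183 for Smg6. Upf1, the helicase of the same decay pathway, had 69.8 and 93.2 CPM at 24 h, against 91.8 and 101 CPM at 0 h, and the groups overlapped (-0.26 ± 0.09, adjusted p = 0.0774). Hnrnpa1, which in human cells binds TERRA, changed by -0.11 ± 0.08 (adjusted p = 0.282), and 28.2% of its 50-base words occur in 20 other genes, so its row is uncertain.

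Other genes of the same pathways were counted in lists taken whole, to be read against the 25.4% lower and 23.1% higher of all genes tested. The polymerase α-primase genes, the partner of CST, fell in 4 of 4, with Prim1 at -1.95 and Pola2 at -1.56 on the log2 scale. Of 17 other genes of telomere replication and end processing 12 fell and 1 rose, with the nuclease-helicase gene Dna2 (-1.99) and Recql4 (-1.89) lowest and the nuclease gene Mus81 (0.32) higher. Of 14 recombination genes 10 fell and 1 rose, with Rmi2, a partner of BLM, at -2.56 and Rad52 at 0.49. These 3 lists had medians of -1.44, -1.27 and -1.14, below the median of -0.24 of the 34 genes. Damage signalling genes fell in 9 of 16 (56.2%) and rose in 3 (18.8%), with H2afx (-1.44) and the checkpoint kinase gene Chek1 (-1.23) lowest and Trp53bp1 (0.42) and Lig3 (0.41) highest. Of 13 telomerase assembly genes 5 (38.5%) fell and none rose, with Nop56 (-0.68) and Zcchc8 (-0.57), a factor of telomerase RNA processing in human cells, lowest. Terc, the telomerase RNA, had 11 and 30 counts at 24 h in the Vp16-TRF1ΔN and TRF1ΔN lines, against 40 and 19 counts at 0 h, opposite ways in the lines and not called (adjusted p = 0.740). Terc was named after its values were seen.

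Of 20 heterochromatin genes 8 (40.0%) fell and 2 (10.0%) rose, with the chromatin assembly gene Chaf1b at -2.20 and the histone chaperone gene Asf1b at -1.74 lowest and the DNA methyltransferase gene Dnmt3a at 0.87 and H3f3a, a gene for H3.3, at 0.30 higher. Of 21 genes for TERRA binding and turnover 7 (33.3%) fell and 3 (14.3%) rose. Rnaseh2b (-0.77) and Rnaseh2c (-0.76), subunits of the RNase H2 that cuts RNA paired with DNA, were lowest, and the demethylase gene Kdm1a (0.78) and the THO complex gene Thoc1 (0.37) highest. Of 10 other genes for repeat-binding proteins 8 were tested, and 5 rose, with Zbtb10 at 1.17 and Homez at 0.69. The 1 call lower in that list was Majin, with 2 and 0 counts at 24 h in the Vp16-TRF1ΔN and TRF1ΔN lines and 20 and 22 counts at 0 h. Genes of proliferation moved with the falls of the telomere genes: 35 of 35 fell, with a median of -1.55, Pcna at -1.74 and Mki67 at -1.57 on the log2 scale. The part of proliferation in the changes of the telomere genes was not tested.

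**Figure D3:**
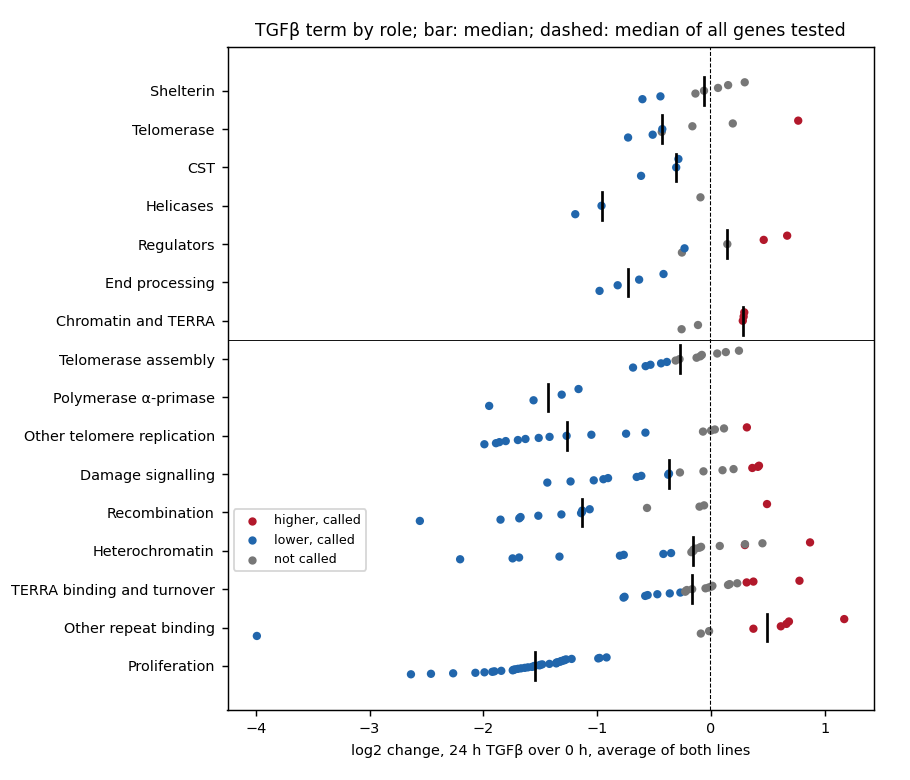
Log2 change at 24 h of TGFβ over 0 h, averaged over both lines, for the genes of each list, with the 7 groups of the 34 telomere genes above the line and the other lists below it. Black bars are list medians and the dashed line is the median of all genes tested. The polymerase α-primase list and the proliferation list lie wholly below 0, as do the CST, helicase and end-processing groups. The point at -3.99 is Majin, a fitted value from few counts.

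The responses of the telomere genes had the same sign in both lines for 33 of 34 (97.1%), against 85.9% of the genes tested. All 34 average 1 CPM or more, whereas the 14305 genes tested include genes below that level, so the shares are not of like genes. The lines were not replicates, and the ratios of 24 h to 0 h within a line have no test. A change was counted at a ratio of at least 1.5-fold with a 95% counting interval that excludes 1. TGFβ was followed by such lower values of 9 of the 34 genes in Vp16-TRF1ΔN and of 8 of 34 in TRF1ΔN. The shares of all 11777 genes that average 1 CPM or more were 16.2% and 18.9%. The telomere genes were Blm, Rtel1, Mre11a, Dkc1, Dclre1b, Nbn, Stn1 and Tinf2 in both lines, and Nhp2 in Vp16-TRF1ΔN. Higher values at that size were found for 1 of 34 in Vp16-TRF1ΔN (Tep1) and 3 of 34 in TRF1ΔN (Tep1, Tnks and Rif1). The shares of the 11777 genes that rose so were 13.9% and 16.0%. Rif1 had a 24 h to 0 h ratio of 1.22 (95% counting interval 1.18 to 1.26) in Vp16-TRF1ΔN and 1.56 (1.52 to 1.60) in TRF1ΔN. Tnks had ratios of 1.45 (1.40 to 1.51) in Vp16-TRF1ΔN and 1.74 (1.68 to 1.80) in TRF1ΔN. For Rtel1 the ratios were 0.466 (0.438 to 0.496) and 0.565 (0.536 to 0.594), and for Upf1 0.760 (0.722 to 0.799) and 0.920 (0.882 to 0.960), in the same order of lines. The 24 h to 0 h ratio of each of these 4 genes was thus lower in the Vp16-TRF1ΔN line than in the TRF1ΔN line. It was a smaller rise for Rif1 and Tnks and a larger fall for Rtel1 and Upf1. The differences of responses were -0.35, -0.26, -0.28 and -0.28 on the log2 scale. Wrn (0.24) and Rad50 (0.12) differed the other way, with counting intervals that excluded 0.

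Over the 34 genes the difference of responses, Vp16-TRF1ΔN minus TRF1ΔN, ran between -0.50 (Zbtb48) and 0.24 (Wrn) on the log2 scale. For 12 of the 34 genes the counting interval excluded 0, while 41.0% of all genes that average 1 CPM or more had such an interval. Of the 12, 10 were negative, but the negative share over all genes was not counted. Their direction is therefore not read as a trait of these genes. The median size of the difference was 0.0965, against 0.140 over those genes. No telomere gene had a difference of 1.5-fold or more, which 4.34% of genes had in the positive and 2.8% in the negative direction. Blm had a difference of -0.20, with a ratio of ratios of 0.871 (0.765 to 0.992), whereas Mre11a, with a fall of like size, had 0.06 (ratio of ratios 1.04, 0.969 to 1.12).

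**Figure D4:**
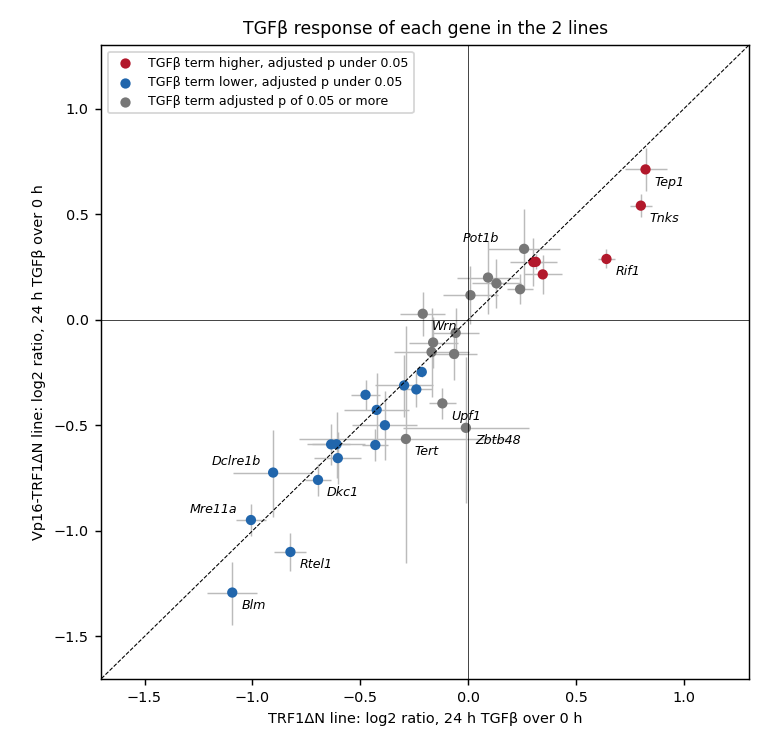
Log2 ratio of 24 h TGFβ over 0 h in the Vp16-TRF1ΔN line (vertical) against the TRF1ΔN line (horizontal) for each of the 34 genes, with 95% counting intervals as bars and equal responses on the dashed line. Most genes lie near that line. Rif1 and Rtel1 lie below it, at differences of -0.35 and -0.28, and Wrn above it at 0.24.

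Between the lines, Vp16-TRF1ΔN over TRF1ΔN averaged over both times, no telomere gene was called. The edgeR quasi-likelihood test called 0.0% of all genes for this term, DESeq2's Wald test called 0.361%, and neither these tests nor limma on the deposited log2 values called any of the 34. At an unadjusted p under 0.05 there were 7 of 34 (20.6%), against 12.4% of all genes, both in either direction. All 7 were lower in Vp16-TRF1ΔN, but the share lower over all genes was not counted, so this direction has no background. In log2 they were Blm at -0.41 ± 0.09, Nhp2 at -0.34 ± 0.07, Dkc1 at -0.29 ± 0.06, Gar1 at -0.31, Upf1 at -0.28, Pinx1 at -0.28 and Hnrnpa1 at -0.22. Their adjusted p in edgeR was 0.397 to 0.399. The 35 proliferation genes had adjusted p of 0.397 or more in this term in edgeR, while all 35 had a negative log2 value and 22 an unadjusted p under 0.05. Their part in the 7 values was not tested.

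At a single time no telomere gene differed between the lines by 1.5-fold or more with an interval that excluded 1. At 24 h 5.82% of genes were that much higher and 4.34% that much lower in Vp16-TRF1ΔN, and at 0 h 1.12% and 1.21%. The log2 ratios of the 34 genes ran between -0.52 (Blm) and 0.33 (Wrn) at 24 h and between -0.33 (Pinx1) and 0.17 (Atrx) at 0 h. For the shelterin genes the line term lay between -0.20 (Tinf2) and 0.12 (Terf2ip). Terf1, the endogenous counterpart of the construct, had a ratio of Vp16-TRF1ΔN over TRF1ΔN of 0.963 (95% counting interval 0.852 to 1.09) at 24 h and 1.04 (0.947 to 1.15) at 0 h. Tert had ratios of 0.825 (0.547 to 1.23) and 1.01 (0.735 to 1.37), so a difference inside these intervals was not detectable at this depth.

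Promoter windows were read because TRF1 binds the telomeric repeat and because several of the genes moved together. RefSeq windows on GRCm38.p6, of 250 bases before to 50 bases after the annotated start, were found for 25 of the 34 genes. The repeat unit TTAGGG, searched on both strands, occurred in 2 of 25, Pot1b and Wrap53, and in 10.6% of all 32851 windows. A pair of adjacent units, TTAGGGTTAGGG, occurred in none of the 25 and in 0.0122% of all windows. The E2F-type letters TTTCCCGC, TTTGGCGC, TTTCGCGC and TTTGCCGC occurred in 1 of the 25 (Terf2ip, at position -222 from the start) and in 2.26% of all windows. The windows that hold a repeat unit are shown with it in capitals. They are Pot1b, on the minus strand at chr17:55712575-55712874, with the unit at position -137 from the start, and Wrap53, on the minus strand at chr11:69580201-69580500, with the unit on the other strand at position -198.
Pot1b: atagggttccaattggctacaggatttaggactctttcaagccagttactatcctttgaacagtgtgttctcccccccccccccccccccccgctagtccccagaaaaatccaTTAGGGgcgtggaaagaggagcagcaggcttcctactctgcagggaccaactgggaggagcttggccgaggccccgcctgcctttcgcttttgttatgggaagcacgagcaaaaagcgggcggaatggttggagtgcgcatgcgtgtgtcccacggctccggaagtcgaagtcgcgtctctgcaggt
Wrap53: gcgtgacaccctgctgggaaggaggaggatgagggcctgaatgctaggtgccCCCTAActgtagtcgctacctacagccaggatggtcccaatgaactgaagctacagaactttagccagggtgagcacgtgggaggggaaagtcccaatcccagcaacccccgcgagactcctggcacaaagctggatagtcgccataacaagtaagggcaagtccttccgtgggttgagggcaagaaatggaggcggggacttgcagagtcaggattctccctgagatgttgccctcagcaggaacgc
Pot1b was not called in either term and Wrap53 fell with TGFβ by 0.43 on the log2 scale. For comparison, the windows of Blm (minus strand, chr7:80534949-80535248) and Mre11a (plus strand, chr9:14784404-14784703), the genes with the largest falls, hold none of the letters searched.
Blm: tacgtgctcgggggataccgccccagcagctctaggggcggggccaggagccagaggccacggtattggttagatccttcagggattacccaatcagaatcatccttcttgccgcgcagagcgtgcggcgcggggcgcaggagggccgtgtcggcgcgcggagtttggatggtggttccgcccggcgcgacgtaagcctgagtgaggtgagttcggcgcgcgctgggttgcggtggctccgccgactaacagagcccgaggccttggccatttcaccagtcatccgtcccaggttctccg
Mre11a: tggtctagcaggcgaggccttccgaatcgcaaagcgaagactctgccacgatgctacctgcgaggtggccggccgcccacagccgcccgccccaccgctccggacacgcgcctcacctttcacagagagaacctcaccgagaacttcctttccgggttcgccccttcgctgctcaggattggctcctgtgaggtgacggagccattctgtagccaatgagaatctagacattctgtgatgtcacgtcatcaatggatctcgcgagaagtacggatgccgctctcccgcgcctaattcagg
A match describes letters in a window, not a site, and a window without a match says nothing about a factor.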

How the data were processed

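The authors' deposited table of counts per gene (4 libraries, raw counts) and their table of log2 normalized values were used. Per the submitters' processing notes, reads were examined with FastQC, aligned to mm10 with STAR, counted with HTSeq and normalized with DESeq2. Tool versions, the gene annotation and whether counting used strand are not given in the sources used. The deposited log2 values equal log2 of the count over DESeq2's size factor, plus 1.

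Rows were matched to symbols through GENCODE M21 (GRCm38, the same build as mm10), and the 4 construct rows entered neither library sizes nor tests. Counts were scaled with TMM factors and fitted in edgeR 4.0.16 (R 4.3.3) with line and TGFβ as additive terms, over the 14305 genes that passed filterByExpr. The fit leaves 1 residual degree of freedom, and an unequal response of the lines counts as noise. Tests were two-sided, adjusted by Benjamini and Hochberg's method over all genes tested, and called at an adjusted p under 0.05. The SE is the size of the log2 change over the square root of F. The code was tested on simulated data.

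Ratios within a line or a time have no test. Their log2 values use a prior count of 2, and their 95% intervals are exact Clopper-Pearson intervals given the total of both counts. For the difference of responses they come from Poisson variances. All cover counting error only. The floor of 3 counts was 0.0875 and 0.0696 CPM in Vp16-TRF1ΔN at 24 h and 0 h, and 0.0713 and 0.0630 CPM in TRF1ΔN at 24 h and 0 h. The mean count of each of the 34 genes was at least 69.25 per library. The labels do not say that the libraries came from separate cultures. All 34 genes are named, and of other lists up to 2 called genes with the highest and 2 with the lowest change, of which one result is not reported here. Cdh1, Cdh2, Fn1, Snai1, Zeb1, Mki67 and Pcna could be named whatever their values, and Terc and the cell type markers were named outside this rule. The genes, lists and tests were chosen with earlier results of these data known. Alternatives were DESeq2's size factors in edgeR, no filter, a mean of at least 1 CPM, DESeq2 1.42.0's Wald test, limma 3.58.1 on the deposited log2 values, and mitochondrial genes left out.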

Additional observations from a re-analysis of the deposited data

Results flagged for a closer look

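Wrn was the only one of the 34 genes whose TGFβ response had opposite signs in the lines, at 0.0282 on the log2 scale in Vp16-TRF1ΔN and -0.211 in TRF1ΔN. The difference between the lines was not tested, since each line has 1 library per time, and no group was large enough to look for a sample apart from its group. The 24 h to 0 h ratio was 1.02 (95% counting interval 0.948 to 1.10) in Vp16-TRF1ΔN, which includes 1, and 0.864 (0.803 to 0.929) in TRF1ΔN.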

How the results depend on the processing

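Of the 21 telomere genes called for TGFβ, 13 were called under all 6 alternatives, 10 lower and 3 higher. The other 8 (Terf1, Wrap53, Ctc1, Ten1, Tnks2, Atrx, Daxx and Smg6) lost the call in DESeq2's Wald test and in no other alternative. DESeq2 therefore called 3 genes higher, against 6 in edgeR, and 10 lower, against 15. Over all genes DESeq2 called 2284 higher and 2626 lower of 15581, and edgeR 3305 and 3631 of 14305. Upf1 gained a call without the filter on low counts (adjusted p = 0.0497) and without mitochondrial genes (0.0486), with 0.0486 to 0.187 over the alternatives. The cause of these changes was not tested. In the line term, Terf1 (0.00 on the log2 scale) turned to -0.000356 with DESeq2's size factors, -0.00774 without mitochondrial genes, -0.00153 in DESeq2 and -0.00235 in limma, and Ten1 (0.01) to -0.00409 without mitochondrial genes. The labels carry no replicate numbers, so no replicate block could be added. With line in the additive fit, the TGFβ term already sets the 24 h library of each line against its 0 h library. Leaving out a library would leave the fit no residual degree of freedom, so none was left out. The counts of genes past 1.5-fold within a line or a time were within 1.5 times of those reported under the other size factors, a prior count of 0.5 and without mitochondrial genes. Depth limits Tert most, since its mean count of 69.25 was the lowest of the 34.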
